A study of Mus musculus with 4 samples.

Results

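The 10 genes Fos, Fosb, Fosl2, Jun, Junb, Jund, Atf3, Egr1, Ier2 and Ier3 were followed in single cells of the embryonic mouse lung. They were taken by gene symbol, each was listed once in every sample, and they are 10 of the 20674 genes listed. Fos, Fosb and Fosl2 encode Fos proteins and Jun, Junb and Jund encode Jun proteins, which pair to form the transcription factor AP-1. Atf3 is a stress-induced relative that pairs with Jun proteins, Egr1 is a zinc finger transcription factor, and Ier2 and Ier3 are named as immediate early response genes. Immediate early genes are transcribed within minutes of a stimulus from factors already present in the cell, and their messenger RNAs decay quickly. Dissociation of a tissue with enzymes at body temperature is itself known to induce them, so a level read from dissociated cells can hold both what the tissue had and what handling added. In the lung, AP-1 and Egr1 are known from growth factor, stretch and injury responses.

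C57BL/6 mice were used and single-cell RNA sequencing was the assay. Live cells were sorted from 3 wild-type (WT) lungs at E17.5 (embryonic days are written with E), and fibroblasts were sorted from 1 lung at E16.5 that carried αSMA-GFP, Tbx4-Cre and Rosa26-tdTomato. The E16.5 gate took cells of the Tbx4 lineage, in which Cre under Tbx4 control had switched on tdTomato, that also showed the αSMA (Acta2) reporter. All 4 samples were minced, digested with trypsin, collagenase and DNase, depleted of red cells and sorted by FACS, per the labels. The same digestion is given for all 4 samples. The labels name no reporter in the E17.5 lungs, and whether these lungs come from separate litters is not stated. P-values therefore measure how far class differences vary between these 3 samples, a spread that may be technical. They also borrow variance from the other genes tested.

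The lungs gave 2682, 2140 and 2657 cells with medians of 7979, 8493.5 and 7201 unique molecular identifiers (UMIs, each standing for 1 captured RNA molecule) per cell, and the sort gave 3085 cells with a median of 12007. Total UMIs were 20347458 to 23996253 per lung and 41038008 in the sort. Between 7 and 13 cell barcodes were shared by any pair of samples. Acta2 averaged 324, 346.7 and 350.1 CPM (UMIs of a gene scaled to 1e6 UMIs per cell) over all cells of the lungs and 3071 CPM in the sort. In mesenchyme alone Acta2 averaged 1099, 1181 and 1419 CPM in the lungs and 2992 CPM in the sort, and Tbx4 averaged 41.7, 51.1 and 41.6 CPM in the lungs and 44.2 CPM in the sort. Epcam, an epithelial marker, averaged 105 to 114 CPM in the lungs and 7.65 CPM in the sort, so the sort had the markers its gate names. It still held 30 epithelial, 20 endothelial and 76 cardiac muscle-like cells. No label gives the type of a single cell, so classes were rebuilt by clustering with the 10 genes held out, and names ending in "-like" rest on marker lists. Each level below is the mean over cells of a gene's CPM in that cell. CPM values of different genes are not compared, and levels are set against the same gene in another class.

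The start regions of Fos, Jun and Atf3 are shown because these genes carry the main contrasts below and because their first 150 bases before the start hold letters of the sites that AP-1 and its relatives bind. The sequences are from RefSeq on GRCm38.p6. Windows of 8 of the 10 genes were read, without Egr1 and Ier2, and each line reads toward the gene's start. Capitals mark the CRE core TGACGT on either strand, the Jun-type variant TGACATCA and the TATA box TATAAA.
Fos, chr12:85473740-85473889, plus strand: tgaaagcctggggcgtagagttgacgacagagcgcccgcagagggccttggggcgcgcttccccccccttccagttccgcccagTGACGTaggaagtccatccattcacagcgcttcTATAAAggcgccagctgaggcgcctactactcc
Jun, chr4:95052223-95052372, minus strand: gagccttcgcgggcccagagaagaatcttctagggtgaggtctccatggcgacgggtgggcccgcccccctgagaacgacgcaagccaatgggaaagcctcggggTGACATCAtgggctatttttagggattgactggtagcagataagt
Atf3, chr1:191183334-191183483, minus strand: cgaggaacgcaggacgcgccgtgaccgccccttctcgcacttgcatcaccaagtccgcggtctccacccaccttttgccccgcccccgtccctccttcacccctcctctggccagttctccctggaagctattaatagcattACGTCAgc
In Fos the CRE core began 66 bases and the TATA box 33 bases before the start, in Jun the variant began 45 bases before it, and in Atf3 the CRE core lay on the opposite strand from 8 bases before it. On both strands of the same window in 32843 promoters, TGACGT was found in 5.15%, TGACATCA in 2.32% and TATAAA in 7.58%. The palindromic AP-1 site TGANTCA was in 4.24% and the full CRE TGACGTCA in 1.36% of promoters and in none of the 8 windows (TGACGT is part of TGACGTCA). The serum response element letters of the CArG box were in 0.917% of promoters and in none of the 8. The GC box GGGCGG was in 28.6% of promoters and in the windows of Fos, Fosb, Fosl2, Jun, Atf3 and Ier3. Sites more than 150 bases before the start, or in Egr1 or Ier2, were not looked for. These are matches of letters, and no binding was measured.

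Across the E17.5 lungs, 7 of the 10 genes were higher in mesenchyme than in the other compartments. Fosl2 and Atf3 were highest in immune cells, and Ier3 was about level in immune cells and endothelium. Fos had 3555, 3560 and 3990 CPM in mesenchyme of the 3 lungs. It had 1417, 1250 and 1384 CPM in epithelium, 890, 1063 and 962 CPM in endothelium and 1275, 1002 and 1253 CPM in immune cells. Every mesenchyme value lay above every value of the other 3 compartments, which overlapped among neighbours in the order epithelium, immune cells, endothelium. Jun had 2518, 2338 and 2650 CPM in mesenchyme. Endothelium (1089, 1075 and 1092 CPM), epithelium (902, 907 and 954 CPM) and immune cells (633, 473 and 527 CPM) followed for Jun without overlap. Egr1 had 843, 912 and 916 CPM in mesenchyme, 372, 372 and 393 CPM in epithelium, 207, 225 and 234 CPM in endothelium and 177, 150 and 186 CPM in immune cells. Mesenchyme again stood alone, and for Jun and Egr1 immune cells were the lowest compartment.

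Junb, which encodes a Jun protein of weaker transforming activity than Jun, had 1754, 1813 and 1904 CPM in mesenchyme, 907, 1041 and 940 CPM in immune cells, 732, 897 and 801 CPM in endothelium and 698, 620 and 732 CPM in epithelium. Jund, the most constitutive Jun gene in many cells, had 1667, 1547 and 1500 CPM in mesenchyme, 930, 852 and 841 CPM in immune cells, 841, 861 and 686 CPM in endothelium and 753, 610 and 617 CPM in epithelium. Mesenchyme was clear of the rest for both, and the other 3 compartments of Jund overlapped among neighbours. Ier2 had 800, 866 and 875 CPM in mesenchyme, 567, 647 and 603 CPM in endothelium, 386, 410 and 394 CPM in epithelium and 223, 207 and 193 CPM in immune cells. For Ier2 the 4 compartments did not overlap. Summed over the 10 genes, mesenchyme had 12928 ± 462 CPM, immune cells 5517 ± 156 CPM, endothelium 5423 ± 328 CPM, epithelium 5233 ± 196 CPM and erythroid cells 1362 ± 329 CPM (SD, n = 3 lungs).

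**Figure D1:**
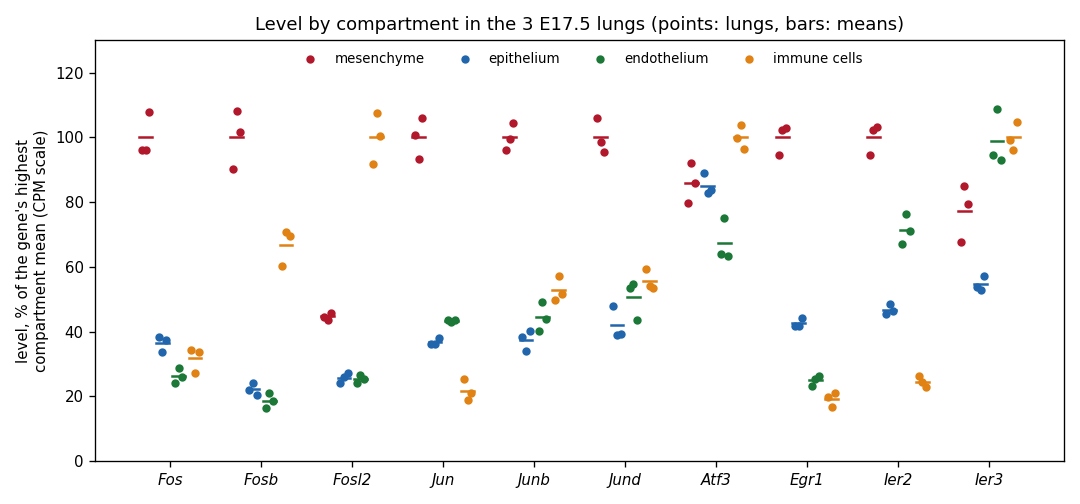
Level of each gene in the 4 compartments of the 3 E17.5 lungs, as a percent of that gene's highest compartment mean (points are lungs, bars are means of 3). Mesenchyme is at the top for Fos, Fosb, Jun, Junb, Jund, Egr1 and Ier2 with no overlap, immune cells are at the top for Fosl2 and Atf3 with no overlap, and for Ier3 immune cells and endothelium overlap.

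Each compartment was tested against the mean of the other 3 with limma on log2(CPM + 10), with the lung as a block and Benjamini-Hochberg adjustment over 8363 genes. The log2 difference is set against the mean of the log levels of the other compartments and need not match the ratio of mean CPM. In mesenchyme 7 of the 10 genes were called higher at an adjusted p under 0.05 and 0 were called lower, where 41.8% of all genes tested were called higher and 34.9% lower (76.7% called in all). The count alone is therefore read with the sizes: the median of the 10 was 1.17 on the log2 scale and that of all genes was 0.05. Egr1 was higher by 1.83 (SE 0.04, limma adjusted p = 1.36e-20), Fosb by 1.68 (SE 0.04, limma adjusted p = 2.30e-20) and Fos by 1.67 (SE 0.05, limma adjusted p = 2.05e-18), each in 3 of 3 lungs. Jun was higher by 1.60, Ier2 by 1.18, Junb by 1.16 and Jund by 1.02, also in 3 of 3 lungs. These 7 calls held under all 12 alternatives. Fosl2 (0.10), Ier3 (-0.08) and Atf3 (0.04) were not called, with limma adjusted p = 0.093, 0.143 and 0.335. The sign of the Fosl2 and Atf3 values turned with the scaling.

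Immune cells had the opposite order for several genes. Fosl2, a Fos relative, had 142, 166 and 155 CPM in immune cells, against 68.7, 67.5 and 70.9 CPM in mesenchyme and 37.2 to 41.9 CPM in epithelium and endothelium. Its log2 difference from the other compartments was 1.51 (SE 0.05, limma adjusted p = 1.20e-17). Of the 10 genes 4 were called higher in immune cells (Fosl2, Fosb by 0.91, Ier3 by 0.41 and Atf3 by 0.33) and 5 lower, where 28.2% of all genes were called higher and 57.7% lower (86.0% in all). Ier2 was lower by -1.46, Jun by -1.31 and Egr1 by -1.26 on the log2 scale. Fos was lower by -0.53. The fifth, Jund (-0.10, limma adjusted p = 0.0256), was 0.29 with median-of-ratios scaling. Atf3, whose protein is known for restraining inflammatory genes in macrophages, had 449, 467 and 435 CPM in immune cells, against 359, 414 and 387 CPM in mesenchyme, 401, 372 and 377 CPM in epithelium and 288, 338 and 285 CPM in endothelium. Its compartments differed less than those of any gene above, and mesenchyme and epithelium overlapped.

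Endothelium and epithelium had 7 and 8 of the 10 genes lower. In endothelium the 2 genes higher were Ier2 (567, 647 and 603 CPM, log2 difference 0.54) and Ier3 (423, 486 and 416 CPM, log2 difference 0.38, beside 443, 429 and 468 CPM in immune cells, which overlapped with endothelium), where 51.6% of all genes were called higher and 27.6% lower (79.2% in all). With median-of-ratios scaling the Ier3 difference was 0.11 and was not called. Jun in endothelium (0.01) was not called. Fosb had 130, 167 and 147 CPM in endothelium and 173, 191 and 162 CPM in epithelium, which overlapped. Immune cells (477, 559 and 549 CPM) and mesenchyme (714, 854 and 804 CPM) lay above both. In epithelium Egr1 alone was called higher (0.21), Atf3 (0.03) was not called, and Fosb (-1.14), Fosl2 (-0.79), Ier3 (-0.72), Junb (-0.71) and Jund (-0.64) were the genes furthest below. The smaller Fos and Jun differences in epithelium (-0.26 and -0.30) were not called with edgeR. For all genes 27.3% were called higher and 48.4% lower in epithelium (75.7% in all). The scaling moves this background: of all genes called, 54.5% were higher in mesenchyme (42.4% with median-of-ratios scaling), 65.2% in endothelium (44.1%), 32.9% in immune cells (50.4%) and 36.1% in epithelium (41.8%). The median over all genes was 0.05 in mesenchyme (-0.07 with median-of-ratios scaling), 0.16 in endothelium (-0.05) and -0.27 in immune cells (-0.00), and the differences above are read relative to it.

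Related genes were read from lists chosen with earlier results known. Of 35 other immediate early and feedback genes 34 were tested in mesenchyme, and 25 were higher and 4 lower, with a median of 0.88. Nr4a2, an orphan nuclear receptor, was higher by 2.52 and Cyr61, a matrix-associated growth regulator, by 2.48, while Nfkbia, which encodes the NF-κB inhibitor, was lower by -0.63. Of 9 tested genes for other AP-1 dimer partners, 7 were higher, led by Maf (2.04) and Maff (1.78), and Batf, known from immune cells, was lower (-0.94). Of 9 heat shock genes 6 were higher (Hspb1 by 2.65, Hspa1a by 1.70) and 1 was lower (Hspa8, -0.63). Of 16 genes for upstream kinases and factors, 4 were higher, among them Srf (0.52) and Mapk8, which encodes the kinase JNK1 (0.69), and 6 were lower. In immune cells 16 of the 34 immediate early genes were higher, with Dusp5 (2.14) and Mcl1 (1.61) leading, and 15 were lower, with Cyr61 (-3.41) furthest. In endothelium Plk2 (3.07), a polo-like kinase gene, and Klf2 (1.89), known for its response to blood flow, led 9 higher genes against 22 lower ones. In epithelium 7 were higher (Cyr61 by 1.60) and 25 lower (Klf2, -3.04).

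Within mesenchyme, Atf3 and Jun went opposite ways between contractile cells (myofibroblast-like and smooth muscle-like together) and matrix fibroblast-like cells. Atf3 had 615, 676 and 691 CPM in contractile cells, against 223, 256 and 215 CPM in matrix fibroblast-like cells, a log2 difference of 1.48 (SE 0.06, limma adjusted p = 1.38e-14). Myofibroblast-like cells carried it, with 830 ± 93.4 CPM (SD, n = 3), while smooth muscle-like cells had 301 ± 34.0 CPM and overlapped with pericyte-like cells. Jun had 2195, 1944 and 2347 CPM in contractile cells, against 2825, 2631 and 3014 CPM in matrix fibroblast-like cells (-0.39, SE 0.03, limma adjusted p = 1.30e-10). Ier2 (-0.34), Fos (-0.29), Egr1 (-0.27), Fosb (-0.22) and Junb (-0.16) were also lower in contractile cells in 3 of 3 lungs. In all 3 of the 10 genes were called higher and 6 lower, where 27.8% of all genes were called higher and 15.1% lower (43.0% in all). The other higher calls were small. Ier3 (0.25) was higher in 2 of 3 lungs and Jund (0.09) in 3 of 3, and neither was called without the lung block (adjusted p = 0.0740 and 0.191) or with median-of-ratios scaling, where Jund was -0.04. Of all genes called, 64.8% were higher in contractile cells, and 48.2% with median-of-ratios scaling. Among the other immediate early genes 13 were higher (Klf10 by 1.57, Klf2 by 1.37) and 10 lower (Dusp6, -0.97), and Maf was lower by -2.53.

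Most of the 10 genes were lower in pericyte-like than in matrix fibroblast-like cells. They summed to 9257 ± 1386 CPM in pericyte-like cells and to 13897 ± 430 CPM in matrix fibroblast-like cells (SD, n = 3 lungs). Fos had 2286, 2782 and 1926 CPM in pericyte-like cells, against 4045, 3959 and 4391 CPM in matrix fibroblast-like cells (-0.84, SE 0.05, limma adjusted p = 1.11e-19). Of the 10 genes 0 were called higher and 8 lower, where 21.4% of all genes were called higher and 15.1% lower (36.5% in all). Ier3 (-0.83), Fosb (-0.82), Jund (-0.78), Ier2 (-0.64), Fosl2 (-0.58), Jun (-0.58) and Egr1 (-0.50) were the others. Fosl2 was not called without lung 3 (adjusted p = 0.136). Junb (-0.09, limma adjusted p = 0.192) and Atf3 (0.15, limma adjusted p = 0.265) were not called. Of all genes called, 58.5% were higher in pericyte-like cells, and 46.7% with median-of-ratios scaling. Of 34 other immediate early genes tested 4 were higher and 24 lower, with a median of -0.63. Ctgf (2.18) and Dusp5 (1.55) were higher, while Nr4a2 (-1.79) and Cyr61 (-1.69) were lower.

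Between the alveolar epithelial classes, Ier3 was higher in AT1-like cells, the flat gas exchange cells, than in AT2-like cells, which make surfactant. It averaged 350 ± 11.5 CPM in AT1-like cells and 175 ± 6.27 CPM in AT2-like cells (SD, n = 3), a log2 difference of 0.96 (SE 0.06, limma adjusted p = 6.61e-18). Erythroid cells had Ier3 at 250 ± 115 CPM over 12 or 13 cells per lung, so the AT2-like level was not above that of erythroid cells. Whether the erythroid level is free RNA or RNA of the erythroid cells was not tested, nor was the part of free RNA in the difference. Fosl2 (0.48) was higher as well, and these 2 calls held under all 12 alternatives. In all 4 were called higher and 2 lower, where 22.9% of all genes were called higher and 16.6% lower (39.4% in all), so the count of 10 does not stand apart from that of all genes. Egr1 (0.23), Atf3 (0.20), Jun (-0.13) and Jund (-0.16) made up the rest, and each lost its call when 1 of the lungs was left out, Egr1 without lung 3 (adjusted p = 0.190), Atf3 without lung 1 or lung 3, and Jun and Jund without lung 1 or lung 2. Jun and Jund changed sign with edgeR and with summed UMIs. Without the lung block 3 of the 10 were called and without lung 1 also 3.

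**Figure D2:**
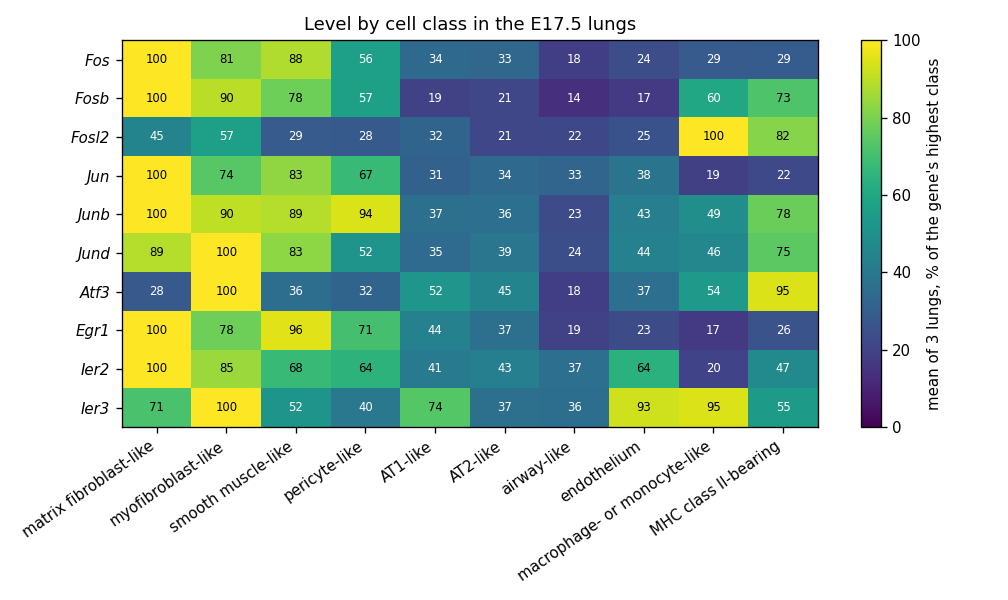
Level of each gene in 10 cell classes of the E17.5 lungs, as a percent of that gene's highest class (mean of 3 lungs, colour and number). Matrix fibroblast-like cells are at 100% for Fos, Fosb, Jun, Junb, Egr1 and Ier2, myofibroblast-like cells for Jund, Atf3 and Ier3, and macrophage- or monocyte-like cells for Fosl2.

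The highest classes overlapped for most genes. For Fos, matrix fibroblast-like (4132 ± 229 CPM), smooth muscle-like (3642 ± 508 CPM) and myofibroblast-like cells (3328 ± 594 CPM) overlapped in order, and airway-like cells were the lowest (759 ± 315 CPM, SD, n = 3). For Jun, matrix fibroblast-like cells (2823 ± 192 CPM) stood above the next class, smooth muscle-like cells (2350 ± 297 CPM), without overlap. For Ier3, myofibroblast-like (475 ± 56.6 CPM), macrophage- or monocyte-like (449 ± 28.7 CPM) and endothelial cells (442 ± 38.5 CPM) overlapped. MHC class II-bearing cells, 20 to 23 per lung, overlapped with myofibroblast-like cells for Atf3 at 784 ± 140 CPM. The mesothelial cluster held 15, 1 and 16 cells of the 3 lungs and entered no test, and its Atf3 was 911, 2920 and 554 CPM.

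Macrophages did not form 1 level. Values of clusters are descriptions with no test. The cluster led by C1qa, C1qc and Pf4, complement and chemokine genes of macrophages, held 217 cells. It had Fos at 2418 ± 362, Jun at 1773 ± 219, Junb at 2211 ± 115, Atf3 at 1195 ± 53.7 and Egr1 at 530 ± 67.7 CPM. The 2 clusters led by Ear2, Lpl, Gal and Plet1 held 732 and 609 cells and had Fos at 971 ± 87.6 and 1015 ± 171, Atf3 at 258 and 312 and Egr1 at 130 and 103 CPM. Jun was 340 and 363 CPM there. Fosl2 ran the other way, at 80.9 ± 24.1 CPM in the C1qa cluster and 164 and 155 CPM in the Ear2 clusters. A monocyte-like cluster led by Plac8 (164 cells) had Atf3 at 921 ± 61.5 CPM, and the granulocyte-like cluster (46 cells) had Fos at 407 ± 180 CPM (SD, n = 3 lungs throughout).

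Single cells of a class differed widely. In mesenchyme the Fos level of a cell was 244, 210 and 214 CPM at the 10th percentile of the 3 lungs, 2534, 2616 and 2857 CPM at the median and 8294, 8394 and 9273 CPM at the 90th percentile. The top 10% of cells held 31.2 ± 0.963% of the Fos level and 51.6 ± 2.73% of the Atf3 level (SD, n = 3). This share is not corrected for counting noise, which weighs more at low levels. For Fosl2, at 68.7, 67.5 and 70.9 CPM in mesenchyme, it was 50.8, 49.3 and 51.9%, so it does not by itself tell how a gene is spread. The squared coefficient of variation beyond counting noise was 0.905 ± 0.0430 for Fos, 0.806 ± 0.0494 for Jun, 0.630 ± 0.0327 for Egr1 and 2.64 ± 0.437 for Atf3 in mesenchyme. For Atf3 it was 1.66, 2.53 and 1.14 in matrix fibroblast-like cells alone and 2.29, 1.51 and 1.77 in contractile cells alone. Mesenchyme pools these classes, which differ in Atf3 level, and the part of this pooling was not tested. Over the 10 genes the median excess was 0.815 ± 0.0428 in mesenchyme, 0.916 ± 0.0699 in epithelium, 1.06 ± 0.185 in endothelium and 1.10 ± 0.0434 in immune cells. Medians over all ranked genes were 0.120 to 0.181. In every lung all 10 genes varied more than 50% of the 2373 to 3034 genes ranked, except Fosl2 in epithelium, which fell short in lung 1. Ranked genes had at least 50 CPM in that class and lung. Fosl2 was below this limit in epithelium and endothelium, at 37.2 to 41.9 CPM, so its rank there is against genes of higher level. Its excess in epithelium was -0.061, 0.215 and 0.477 in the 3 lungs. Above 90% of genes in every lung were 2 of the 10 in mesenchyme, 4 in epithelium, 7 in endothelium and 5 in immune cells. In immune cells Egr1 (2.22 ± 0.330) and Jun (1.93 ± 0.0654) varied most, and both lay apart between the macrophage clusters above.

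**Figure D3:**
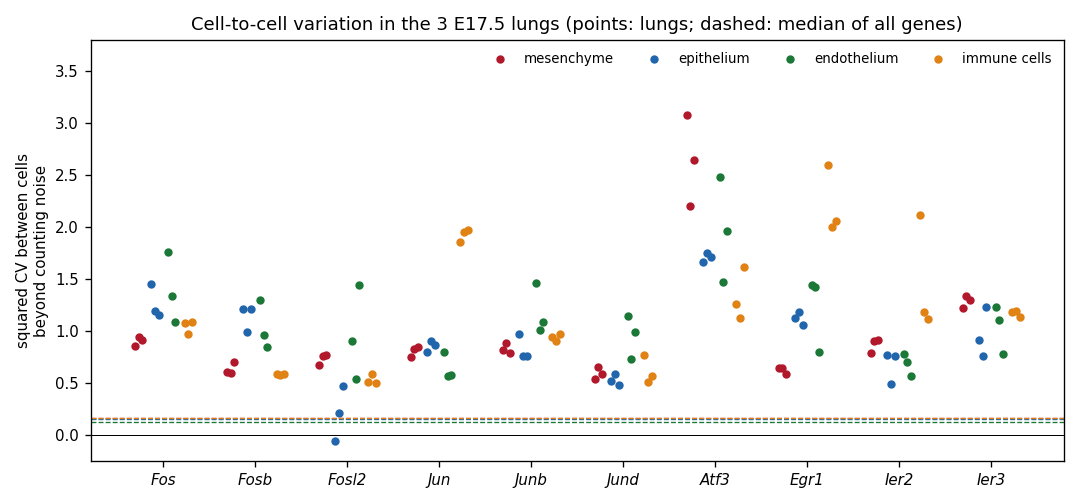
Squared coefficient of variation between cells beyond counting noise for each gene in 4 compartments (points are the 3 E17.5 lungs, dashed lines the median over all ranked genes). Atf3 reaches 3.08 in mesenchyme of lung 1, and all points lie above the dashed lines except Fosl2 in epithelium of lung 1.

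How many cells carried a gene was read after thinning each cell to 1000 UMIs. A Fos UMI was then found in 76.8 ± 0.809% of mesenchymal cells, 54.3 ± 1.47% of epithelial, 45.1 ± 4.21% of endothelial and 55.3 ± 3.85% of immune cells (SD, n = 3), and before thinning in 95.1, 88.6, 82.3 and 94.4%. Erythroid cells were taken as a comparison for free RNA: 5 of 37 cells had a Fos UMI (13.5%, exact 95% interval 4.54 to 28.8%). They had a median of 3246 UMIs, against medians of 6797 to 8391 UMIs in mesenchyme. Their level was 180 ± 78.6 CPM for Fos, 221 ± 25.2 CPM for Ier2 and 250 ± 115 CPM for Ier3. Over all cells of the lungs these genes had 1845, 497 and 369 CPM. The erythroid level was thus nearer to that of all cells for Ier2 and Ier3 than for Fos, and whether it is free RNA was not tested. Mean Ier3 in pericyte-like cells (190 CPM) and mean Ier2 in immune cells (208 CPM) were not above the erythroid levels. Ier2 and Ier3 were each found in 21.6% of erythroid cells (exact 95% interval 9.83 to 38.2%). The Ier3 share in epithelium (19.2 ± 1.12%) and the Ier2 share in immune cells lay below that, so these shares could not be told from those of erythroid cells at this depth. Both genes still varied there beyond counting noise. The excess squared coefficient of variation was 0.916, 0.759 and 1.23 for Ier3 in epithelium and 2.12, 1.18 and 1.12 for Ier2 in immune cells. Fosl2 was in 5.41% of erythroid cells (exact 95% interval 0.662 to 18.2%), and its shares in epithelium (4.23 ± 0.427%) and endothelium (3.48 ± 1.25%) lay below that. In mesenchyme (6.24 ± 0.963%) and immune cells (14.5 ± 1.65%) the Fosl2 share was inside that interval. No share of Fosl2 could therefore be told from that of erythroid cells at this depth. Its level in erythroid cells was 23.7 ± 5.34 CPM, below the 142 to 166 CPM of immune cells. Fosb and Atf3 were in 0 of 37 thinned erythroid cells (upper exact limit 9.49%), and Atf3 was in 24.5 ± 1.55% of mesenchymal cells. Before thinning, 13.5% of erythroid cells had a Fosb UMI and 21.6% an Atf3 UMI. The erythroid Atf3 level was 282, 44.8 and 24.5 CPM in the 3 lungs, from 10, 2 and 1 UMIs. A mesenchymal cell held a median of 5 of the 10 genes in each lung, and 57.0, 58.8 and 60.8% of mesenchymal cells held at least 5. In the other compartments the median was 2 or 3 genes, and 24.6 to 32.7% of cells held at least 5.

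The genes varied together from cell to cell, as a description over cells of the same library thinned to 2000 UMIs. In mesenchyme Fos and Jun had a mean Pearson r of 0.67 (0.65 to 0.71 over the 3 lungs), Fos and Junb 0.64, Jun and Junb 0.56 and Fos and Egr1 0.55. The pair Fos and Jun had 0.56 in epithelium, 0.47 in endothelium and 0.34 in immune cells. The median over the 45 pairs was 0.17 in immune cells, beside 0.30 in mesenchyme. A lower level of a gene lowers its r at a fixed depth, and this part was not tested. Fosl2 had low values with the others, between 0.02 (Jun) and 0.12 (Jund and Atf3) in mesenchyme, up to 0.16 (Jund) in endothelium and down to -0.11 (Jun) in immune cells. In contractile cells Atf3 was nearer to Jund (0.44) than to Fos (0.21) or Jun (0.24). In matrix fibroblast-like cells these values were 0.25, 0.18 and 0.20. The contractile class pools myofibroblast-like and smooth muscle-like cells, with mean Atf3 at 830 and 301 CPM and Jund at 1805 and 1499 CPM. Mean Fos (3328 and 3642 CPM) and Jun (2085 and 2350 CPM) ran the other way. The part of this pooling in the r values was not tested. The sum of the 10 genes moved with cell quality in some compartments. Its r with the mitochondrial share was -0.22, -0.19 and -0.40 in mesenchyme, -0.25, -0.31 and -0.11 in epithelium, -0.29, -0.28 and -0.29 in endothelium and 0.10, 0.07 and -0.07 in immune cells. Its r with the log2 UMI total was 0.24, 0.31 and 0.23 in epithelium and 0.27, 0.26 and 0.27 in endothelium, and between -0.09 and 0.11 in mesenchyme and immune cells. The part of these in the shared variation was not tested.

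Outside the 10, the genes most like them from cell to cell were sought by the mean r with their sum over 13 groups of cells (each compartment in each lung, and the mesenchyme of the sort), for 1388 genes. Dusp1, a phosphatase that switches off MAP kinases, had 0.58 (0.32 to 0.67), Socs3, a cytokine signal inhibitor, 0.58, Ppp1r15a, of the stress response, 0.57, Zfp36, which speeds messenger RNA decay, 0.54, and Klf6 0.49. Btg2 (0.46), Nr4a1 (0.45), Klf2 (0.45), Pnrc1 (0.44) and Ftl1 (0.39) followed. In cells thinned to 2000 UMIs, chosen after seeing the data, the values were lower, such as 0.38 for Dusp1. By class, over 30 profiles of 10 classes in 3 lungs and 2760 genes, Nr4a1 (0.92), Klf4 (0.91), Socs3 (0.88), Nr4a2 (0.88) and Sertad1 (0.86) were closest. Of the 10 themselves Jund (0.95), Junb (0.91) and Fos (0.90) followed their common profile most closely, and Atf3 (0.52), Ier3 (0.50) and Fosl2 (0.47) least. Each of the 10 is part of that profile, which raises its r, so these values do not compare with those of the other genes.

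The E17.5 lungs were set beside the E16.5 sort within the 3 mesenchymal classes that both held. All 10 genes were higher in the lungs in each class, and the lowest lung was at least 2-fold above the sort for every one. Stage, sort gate, reporters, time in handling and library change together between the groups and cannot be told apart, and with 1 sorted sample no test was made. Fosb had 655, 844 and 744 CPM in contractile cells of the lungs and 25.8 CPM in the sort (Poisson 95% interval 22.0 to 27.1 CPM, from summed UMIs and for counting error only). It had 795, 915 and 908 CPM in matrix fibroblast-like cells of the lungs and 38.3 CPM in the sort, and 432, 631 and 429 CPM in pericyte-like cells of the lungs and 19.5 CPM in the sort. Atf3 in matrix fibroblast-like cells had 223, 256 and 215 CPM in the lungs and 4.02 CPM in the sort (interval 2.71 to 7.23 CPM), a ratio of 57.6. In pericyte-like cells it had 254, 359 and 185 CPM in the lungs and 8.82 CPM in the sort. Fosb and Atf3 were thus the genes furthest below the lungs in the sort, in each of the 3 classes. Jun had 2195, 1944 and 2347 CPM in contractile cells of the lungs and 786 CPM in the sort, a ratio of 2.75, and Fos had 3071, 3234 and 3906 CPM in the lungs and 938 CPM in the sort, a ratio of 3.63. Ier3 had 381, 386 and 435 CPM in the lungs and 58.1 CPM in the sort. In pericyte-like cells Fos had 2286, 2782 and 1926 CPM in the lungs and 225 CPM in the sort, a ratio of 10.4. Junb there had 1712, 2074 and 1601 CPM in the lungs and 188 CPM in the sort.

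**Figure D4:**
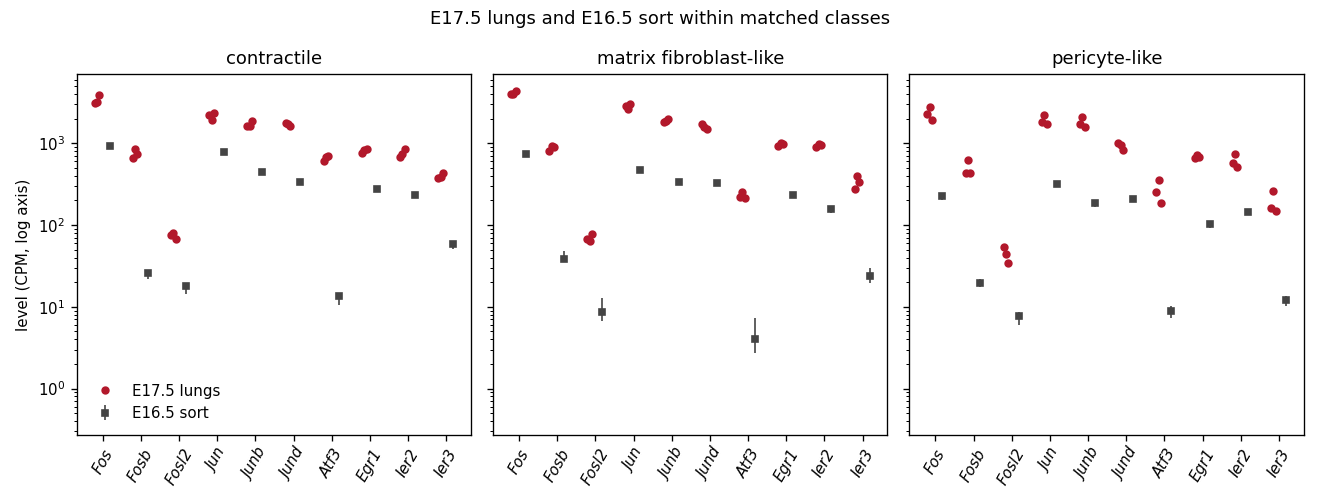
Level of each gene (CPM, log axis) in 3 classes, with the 3 E17.5 lungs as red points left of the E16.5 sort as a grey square with its Poisson 95% interval. Each lung lies above the sort for every gene and class, with the widest gaps at Fosb, Atf3 and Ier3.

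The median log2 difference of the 10 genes, lungs over sort, was 1.89 in contractile, 2.51 in matrix fibroblast-like and 2.91 in pericyte-like cells, beside -0.13, -0.18 and -0.04 over all genes compared. All genes were filtered at a mean of at least 50 CPM, taken over the lung mean and the sort. Of those passing, 4.01% in contractile, 4.68% in matrix fibroblast-like and 3.0% in pericyte-like cells were as far above the sort in every lung. As far below were 0.539, 1.37 and 0.459%. Fosl2 did not pass that filter in any of the 3 classes, in contractile and matrix fibroblast-like cells because its low sort level enters the mean. Fosl2 had 75.1, 81.1 and 68.5 CPM in contractile cells of the lungs and 17.8 CPM in the sort. Myofibroblast-like cells alone, an alternative added after seeing the data, gave 10 of 10 as well (4.55% of genes above and 0.597% below), as did smooth muscle-like cells alone (4.62% above and 0.823% below). The 20 endothelial cells of the sort, against 424 to 490 per lung, also had all 10 lower than the lungs (3.10% of genes, and 1.17% the other way). The 30 epithelial cells of the sort differed, and were looked at after their values were seen. There 4 of the 10 were as far above the sort in every lung (Fos, Fosb, Junb and Ier3), where 7.11% of genes were and 3.87% were as far below. Jun had 902, 907 and 954 CPM in epithelium of the lungs and 1127 CPM in the sort, Egr1 372, 372 and 393 CPM in the lungs and 395 CPM in the sort, and Ier2 386, 410 and 394 CPM in the lungs and 537 CPM in the sort. These 30 cells had a median of 30301.5 UMIs, against 9309 to 10905 in the epithelium of the lungs, and the part of depth or of mixed cells was not tested. The classes of the sort were clustered apart from those of the lungs and hold clusters led by cell cycle genes, so their makeup can differ.

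Most of the other immediate early genes measured went the same way. As far above the sort were 19 of 26 in contractile, 20 of 24 in matrix fibroblast-like and 13 of 21 in pericyte-like cells, with 0 below. Measured genes are those passing the 50 CPM filter. A gene could pass it through the group where it is high, as Trib1 did through the lungs, so these counts are descriptions only. Klf2 in pericyte-like cells averaged 605 CPM (515 to 732 CPM) in the lungs and 50.3 CPM in the sort, and Trib1 in matrix fibroblast-like cells averaged 204.5 CPM (181 to 218 CPM) in the lungs and 3.88 CPM in the sort. Maff was the 1 dimer partner apart in each class, at 433 CPM in matrix fibroblast-like cells of the lungs and 46.3 CPM in the sort. Heat shock genes went in both directions. Of 8 measured, Dnajb1 was higher in each class (170 CPM in contractile cells of the lungs, 60.7 CPM in the sort). Hspa1a, an inducible HSP70 gene, was lower in contractile cells (172 CPM in the lungs, 428 CPM in the sort) and in matrix fibroblast-like cells (97.8 CPM in the lungs, 277 CPM in the sort). Hspd1, a mitochondrial chaperone gene, was lower in pericyte-like cells (138 CPM in the lungs, 313 CPM in the sort), and Hspa5, an endoplasmic reticulum chaperone gene, was higher in matrix fibroblast-like cells (831 CPM in the lungs, 378 CPM in the sort). None of the upstream kinases and factors measured, 3 to 5 per class, was apart in either direction. The median mitochondrial share of mesenchymal cells was 2.19 to 2.33% in the lungs and 2.45% in the sort.

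Fewer cells of the sort held several of the genes at the same depth. At least 5 of the 10 genes, in cells thinned to 1000 UMIs, were held by 51.6, 57.2 and 60.5% of contractile cells in the lungs and by 5.11% in the sort. In pericyte-like cells the shares were 41.8, 53.4 and 35.7% in the lungs and 0.472% in the sort. A lower level of each gene lowers such a share by itself, and whether the genes shared cells less was not tested. A Fos UMI was found in 72.0 ± 4.36% of thinned contractile cells in the lungs and in 48.7% in the sort (95.7 and 88.7% before thinning), and an Atf3 UMI in 33.7 ± 4.01% in the lungs and 1.14% in the sort (72.3 and 9.73% before thinning). The excess squared coefficient of variation of Fos in contractile cells was 1.07 ± 0.0924 in the lungs and 1.02 in the sort, and that of Atf3 was 1.86 ± 0.398 in the lungs and 11.1 in the sort. For Fos this held in contractile cells only: in matrix fibroblast-like cells it was 0.702, 0.837 and 0.777 in the lungs and 1.74 in the sort, and in pericyte-like cells 1.10, 0.671 and 1.33 in the lungs and 1.77 in the sort. Those 2 classes of the sort lay above every lung. The Atf3 value of contractile cells in the sort rests on 179 UMIs over 1233 cells (13.7 CPM), so a few cells can set it. In the sort it was 2.54 in matrix fibroblast-like cells (18 UMIs) and 8.63 in pericyte-like cells (137 UMIs). Fos and Jun had an r of 0.61 in contractile cells of the lungs and 0.31 in the sort, and Fos and Junb 0.59 in the lungs and 0.30 in the sort. Fewer UMIs per gene lower such an r, and their part was not tested.

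**Figure D5:**
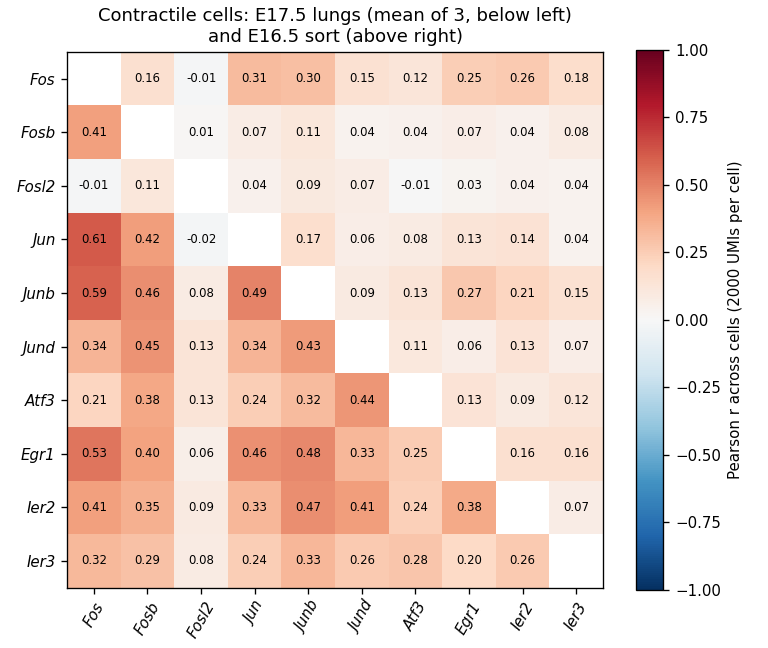
Pearson r between the genes across contractile cells thinned to 2000 UMIs, with the mean of the 3 E17.5 lungs below the diagonal and the E16.5 sort above it. Fos, Jun, Junb and Egr1 had 0.46 to 0.61 among themselves in the lungs, and the Fosl2 rows stay near 0 in the lungs, at -0.02 to 0.13, and in the sort.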

How the data were processed

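Single-cell RNA libraries of 3 E17.5 lungs and 1 E16.5 sort were analysed. Per the submitters' processing notes, the authors used Cell Ranger 1.3.1 and Seurat 3.0.0, with roles not stated. No source used here gives a genome build. Each deposited signal value is a cell's UMI count scaled to the sample's median total, which was tested on the files: 100% of values were whole multiples of 1 UMI (tolerance 0.01), and counts and CPM were computed from them. Called doublets were removed (36, 31 and 23 cells in the lungs, 26 in the sort). Cells were clustered with scanpy 1.11.5 (Leiden resolution 1), lungs and sort separately, on 10219 genes. The other 10455, with the 10 genes and all lists, were held out. Clusters were named from marker lists, and classes rebuilt this way may differ from the study's.

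Class profiles of at least 20 cells per lung (log2 of mean CPM + 10, genes of at least 10 CPM) were tested with limma 3.58.1, blocking on lung, at 0.05 after Benjamini-Hochberg adjustment. A gene's own residual had 6 degrees of freedom in compartment tests and 2 in pair tests. The variance borrowed from all genes tested counted for 15.7 degrees in compartment tests and 17.7 to 51.6 in pair tests. Small p-values rest largely on that borrowed variance. Classes of 1 lung come from the same animal, and their deviations correlated at 0.20 to 0.62. Alternatives were no block, a pseudocount of 1, no filter, median-of-ratios scaling, edgeR 4.0.16 on summed UMIs, summed-UMI CPM, doublets kept, cells over 10% mitochondrial UMIs left out, Leiden resolution 2 and each lung left out. Both tests and the estimate of variation were tested on simulated data. Lungs and sort were compared without a test, a gene being apart when the sort was 2-fold beyond every lung. Intervals cover counting error only. All 10 genes were named in each comparison. Genes of other lists were named from the 2 called genes furthest from 0 in each direction of a comparison (with the sort, among genes of at least 50 CPM), not always both. The 10 genes and the lists were chosen with earlier results of these data known.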

Additional observations from a re-analysis of the deposited data

Results flagged for a closer look

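For 5 genes the contrast between contractile and matrix fibroblast-like cells had one sign in every E17.5 lung and the opposite sign in the E16.5 sort. The log2 difference, contractile minus matrix fibroblast-like, was -0.36, -0.43 and -0.36 for Jun in the lungs and 0.71 in the sort. For Ier2 it was -0.43, -0.41 and -0.17 in the lungs and 0.57 in the sort, and for Junb -0.18, -0.20 and -0.11 in the lungs and 0.40 in the sort. For Fos it was -0.40, -0.29 and -0.17 in the lungs and 0.32 in the sort, and for Egr1 -0.29, -0.30 and -0.20 in the lungs and 0.24 in the sort. Jun of the sort was at 786 CPM in contractile cells, against 476 CPM in matrix fibroblast-like cells. The contractile cells of the sort are 1126 myofibroblast-like and 107 smooth muscle-like cells. The smooth muscle-like cells alone kept the direction of the lungs for Fos (675 CPM, against 748 CPM in matrix fibroblast-like cells), Junb (234 against 332 CPM) and Egr1 (218 against 233 CPM), and went the other way for Jun (675 against 476 CPM) and Ier2 (231 against 156 CPM). The difference between lungs and sort was not tested, since the sort is 1 sample. The sort gate required the αSMA reporter in every cell, its matrix fibroblast-like cells included, and its part was not tested. Atf3 kept its direction, at 1.42, 1.37 and 1.64 in the lungs and 0.76 in the sort.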

How the results depend on the processing

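Of 57 called differences, 46 kept their direction and their call in all 12 alternatives, and of 684 values 33 lost the call and 8 reversed. Counts of calls stayed within 1.5 times in 81 of 84 alternatives. The exceptions were all AT1-like against AT2-like, where 6 calls became 2 with no filter on low values and 3 without the replicate block or without lung 1. Dropping the block moved no other count by as much. It ended the calls of Jun, Jund and Atf3 in AT1-like cells, of Jund in immune cells (adjusted p = 0.193) and of Jund and Ier3 in contractile cells. Leaving out 1 lung gave 9 to 10 calls in epithelium, 9 in endothelium, 7 to 9 in mesenchyme, 8 to 10 in immune cells, 3 to 6 for AT1-like, 7 to 8 for contractile and 8 to 9 for pericyte-like cells. Signs reversed for small differences (log2). With median-of-ratios scaling Jun in endothelium was -0.27, Fosl2 and Atf3 in mesenchyme -0.059 and -0.12, Junb and Jund in immune cells 0.32 and 0.29, Junb in AT1-like cells -0.0022, and Fosl2 and Jund in contractile cells -0.031 and -0.040. With edgeR on recovered UMI sums Jun in endothelium was -0.17, Fosl2 and Atf3 in mesenchyme -0.048 and -0.26, Junb and Jund in immune cells 0.095 and 0.013, Fosb, Jun, Jund and Ier2 in AT1-like cells 0.14, 0.043, 0.056 and 0.049, and Jund in contractile cells -0.044. With summed UMIs Atf3 in mesenchyme was -0.13, and Fosb, Jun, Jund and Ier2 in AT1-like cells were 0.16, 0.071, 0.084 and 0.077. Leaving out 1 lung gave ranges across 0 for Atf3 in epithelium (-0.030 to 0.10), Jun in endothelium (-0.033 to 0.043), Fos and Junb in AT1-like cells (-0.0100 to 0.15 and -0.062 to 0.12), Fosl2 in contractile cells (-0.019 to 0.22), and Junb and Atf3 in pericyte-like cells (-0.21 to 0.022 and -0.012 to 0.33), none of them called over all 3 lungs. The causes were not tested. Summed UMIs gave 5624 and 5889 CPM for the 10 genes together in epithelium and endothelium, against 5233 and 5423 CPM. Thinning to 1000 UMIs gave a median excess squared coefficient of variation of 0.994 in epithelium and 0.975 in immune cells. At 2000 UMIs a Fos UMI was in 66.7% of epithelial, 60.6% of endothelial, 85.6% of mesenchymal and 73.7% of immune cells. With a pseudocount of 1 CPM the median difference between lungs and sort in matrix fibroblast-like cells was 2.58. At 1000 UMIs per cell the share of cells with Fosl2 could not be told from that of erythroid cells.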
